A study of Mus musculus with 10 samples.

Results

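Interferon response genes were described in sorted epithelial cells from the corpus of the mouse stomach, the region that secretes acid. The set held 9 genes chosen by symbol, Irf7, Stat2, Isg15, Ifit1, Ifit3, Oasl2, Rsad2, Bst2 and Rtp4, and all 9 were found among the 55276 genes of the deposited table. RNA was sequenced from living EpCAM-positive cells of C57BL/6 mice aged 6 to 8 weeks, and the sort split them by a reporter that couples the red protein tdTomato to Iqgap3. Cells high for the reporter formed the fraction IQ3pos, and cells low or negative for it formed IQ3neg. Every mouse, controls included, carried Iqgap3-2A-tdTomato. The mice were either Runx3 WT or Runx3 R122C, an arginine-to-cysteine change in the transcription factor RUNX3, and the number of mutant alleles is not given in the labels. WT IQ3pos and WT IQ3neg had 3 libraries each, and R122C IQ3pos and R122C IQ3neg had 2 each. A library was a pool of 3 mice, or of 4 mice for both WT replicate 2 libraries. The p-values of comparisons between groups rest on how far such libraries differed within a group, unless a replicate or code term was also fitted. The titles also carry a 4-digit code whose meaning is not given. It is the same for the IQ3pos and IQ3neg library of 1 genotype and replicate number, and it differs between the replicates except that WT replicate 2 and R122C replicate 1 share a code. The series title asks how R122C affects the stem cells of the gland isthmus, and the fractions and genotypes were compared here for the interferon genes alone.

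Type I and type III interferons are secreted antiviral signals that bind receptors on neighbouring cells. The receptors act through the kinases JAK1 and TYK2 on STAT proteins. STAT2 and IRF9 are parts of ISGF3, a complex that binds the interferon-stimulated response element (ISRE) in the promoters of its target genes. The targets include the proteins that limit viral growth, and also STAT2 and IRF7 themselves, so that a first signal raises the capacity for the next. Epithelia of the digestive tract are known to respond to interferon, and many cells keep a low tonic level of these transcripts without infection.

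The ISRE core, searched as GAAANNGAAA on both strands, was present in the RefSeq promoters of 6 of the 8 members with a promoter entry. The promoter window ran from 250 bases before to 50 bases after the gene start, on the build GRCm38.p6. Of all 32851 promoters in that table, 1131 (3.44%) held the same letters. Isg15 had 3 matches, Ifit1, Ifit3 and Bst2 had 2 each, and Stat2 and Rsad2 had 1 each. No match to these letters lay in the window of Irf7 or of Oasl2. The 6 stretches with a match are printed because they show what the members share in sequence, each read 5′ to 3′ on the strand of its gene, with the bases covered by a match in capitals. Matches read as TTTC spacings lie on the opposite strand.
Isg15: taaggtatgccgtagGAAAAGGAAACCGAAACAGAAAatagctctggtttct
Bst2: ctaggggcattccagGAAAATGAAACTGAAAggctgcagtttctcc
Ifit1: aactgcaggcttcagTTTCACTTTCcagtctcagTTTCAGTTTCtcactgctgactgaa
Ifit3: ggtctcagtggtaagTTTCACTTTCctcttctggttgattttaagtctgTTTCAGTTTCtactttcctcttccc
Rsad2: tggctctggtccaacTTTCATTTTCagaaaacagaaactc
Stat2: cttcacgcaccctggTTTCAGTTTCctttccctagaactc
These stretches lie at chr4:156200860-156200911 on the minus strand for Isg15, chr8:71537572-71537617 on the minus strand for Bst2, chr19:34640770-34640828 on the plus strand for Ifit1, chr19:34583358-34583431 on the plus strand for Ifit3, chr12:26456548-26456587 on the minus strand for Rsad2 and chr10:128270261-128270300 on the plus strand for Stat2. The matches overlap one another in Isg15 and in Bst2 and stand apart in Ifit1 and Ifit3. The gamma-activated site, searched as TTCNNNGAA, matched in Bst2 alone among the 8, where it overlaps the first ISRE core, and in 8.3% of all promoters.

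**Figure D1:**
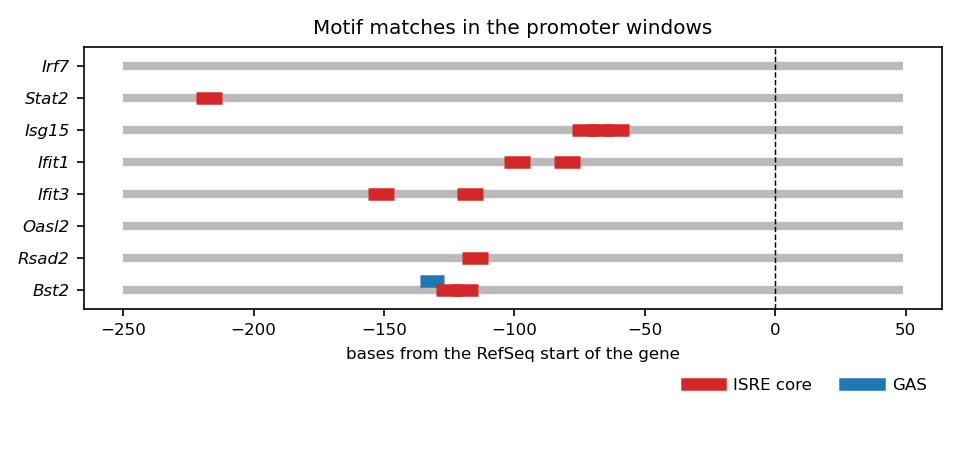
Positions of the motif matches in the promoter windows of 8 interferon response genes, with the distance in bases from the RefSeq start of each gene on the x axis (dashed line at the start). Grey bars are the windows, red blocks are ISRE core matches and the blue block is the gamma-activated site match. All 12 matches lie before the start, and 6 of the 8 windows hold a red block.

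On GRCm38, Ifit1 (chromosome 19, 34640871 to 34650009) and Ifit3 (chromosome 19, 34583531 to 34588731) stand in 1 cluster on the plus strand, with Ifit3b (34607970 to 34613401) between them. The other members lie apart, with Stat2 on chromosome 10 (128270559 to 128292849), Irf7 on chromosome 7 (141262706 to 141266481), Isg15 on chromosome 4 (156199424 to 156200818), Oasl2 on chromosome 5 (114896936 to 114912234), Rsad2 on chromosome 12 (26442746 to 26456452), Bst2 on chromosome 8 (71534255 to 71537456) and Rtp4 on chromosome 16 (23520291 to 23614222). All 9 are annotated as protein-coding. Of the 50-base stretches in the longest annotated transcript of Ifit3, 51.2% also occur in Ifit3b, so the value of Ifit3 is uncertain. The shared part was 13.6% for Rtp4, with the overlapping model Gm45338, 7.13% for Ifit1 and 3.96% for Isg15, and 0 for the other 5 genes.

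Values are log2 CPM (reads per 1000000 reads of a library total), with totals that ran from 47432129 to 264816271 reads. A gene below 1 CPM is listed at 0, so a 0 below stands for fewer than 47.4 to 264.8 reads, depending on the library, and not for absence. The summed CPM of 5 epithelial markers was 3098.91 in WT IQ3neg replicate 1 and 8232.02 to 13180.65 in the other 9 libraries, and that of 4 endothelial and 6 fibroblast and muscle markers did not pass 7.95 and 32.68. The summed CPM of 23 immune markers was 52.67 to 379.81 in WT IQ3pos, 314.96 to 1161.08 in WT IQ3neg, 0 to 21.78 in R122C IQ3pos and 973.04 to 1309.4 in R122C IQ3neg. Between 0 and 18 of the 23 were above the floor in a library, and Cd3e, Cd8a and Ms4a1 were at 0 in all 10. Igkc was the highest of the 23 in every IQ3neg library, at 7.53 to 9.87 log2 CPM. In bulk RNA, fewer cells of a type and less RNA per cell cannot be told apart.

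Irf7, the transcription factor that amplifies interferon production, stood at 4.47, 5.01 and 4.78 log2 CPM in WT IQ3pos replicates 1, 2 and 3 and at 1.21, 4.52 and 4.35 in WT IQ3neg. The R122C libraries were at 2.93 and 1.92 in IQ3pos and at 1.94 and 3.79 in IQ3neg. Every WT IQ3pos library was above both R122C IQ3pos libraries, and the spread within WT IQ3pos (SD 0.27) was the narrowest of the 4 groups for this gene. Ordered by mean, the groups ran WT IQ3pos (4.75), WT IQ3neg (3.36 ± 1.86), R122C IQ3neg (2.87 ± 1.31) and R122C IQ3pos (2.43 ± 0.72), and the libraries of each neighbouring pair in this order overlapped.

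Stat2, the STAT that carries the type I signal within ISGF3, was 4.38, 2.62 and 4.47 log2 CPM in WT IQ3pos and 1.89, 4.60 and 4.06 in WT IQ3neg. In R122C it was 2.09 and 0 in IQ3pos and 3.03 and 0 in IQ3neg. Both 0 values came from replicate 2, in which Isg15, Ifit1, Oasl2, Bst2 and Rtp4 were higher than in replicate 1. The means were 3.82 ± 1.05 in WT IQ3pos (SD, n = 3), 3.52 ± 1.43 in WT IQ3neg (SD, n = 3), 1.52 ± 2.14 in R122C IQ3neg (SD, n = 2) and 1.05 ± 1.48 in R122C IQ3pos (SD, n = 2). The lowest WT IQ3pos value, 2.62, lay above the highest R122C IQ3pos value, 2.09, and the IQ3neg groups overlapped.

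Isg15, a ubiquitin-like protein that is attached to other proteins, was 0, 2.91 and 4.11 log2 CPM in WT IQ3pos and 0, 1.24 and 2.48 in WT IQ3neg. The R122C values were 2.00 and 2.79 in IQ3pos and 0.37 and 1.60 in IQ3neg. The WT replicate 1 libraries were the pair listed at 0, and both R122C IQ3pos values lay above both R122C IQ3neg values.

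Ifit1, which binds viral RNA that lacks host cap methylation, ranged from 0 to 6.86 log2 CPM in WT IQ3pos (0, 5.40 and 6.86) and was 1.99, 5.20 and 5.63 in WT IQ3neg. In R122C it was 0 and 5.82 in IQ3pos and 1.18 and 4.68 in IQ3neg. Within each of the 4 groups the spread between libraries (SD 1.99 to 4.11) was wider than the difference between the means of the fractions, which were 4.09 and 4.28 in WT. Ifit3, of the same family, was above the floor in 1 WT IQ3pos library, replicate 3 (4.15), and in all 5 IQ3neg libraries (1.78, 1.57 and 2.25 in WT, 0.95 and 1.13 in R122C). Its copy Ifit3b was listed at 0 except for 2.42 in WT IQ3neg replicate 3 and 0.98 in R122C IQ3neg replicate 1.

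Oasl2, a member of the oligoadenylate synthetase family, was 0.84, 6.05 and 7.34 log2 CPM in WT IQ3pos and 3.00, 4.87 and 5.69 in WT IQ3neg. In R122C it was 4.52 and 6.39 in IQ3pos and 3.20 and 3.95 in IQ3neg. The WT IQ3pos group held both the lowest and the highest value of the 10. Rsad2, which encodes the antiviral enzyme viperin, was above the floor in 3 libraries, all WT, with 4.83 in IQ3pos replicate 3, 3.20 in IQ3neg replicate 3 and 2.14 in IQ3neg replicate 1. All 4 R122C libraries listed Rsad2 at 0.

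Bst2, also called tetherin, which holds budding virus at the cell surface, was 4.38, 5.97 and 6.91 log2 CPM in WT IQ3pos and 3.28, 4.59 and 5.48 in WT IQ3neg. The R122C values were 4.81 and 5.73 in IQ3pos and 2.97 and 4.38 in IQ3neg. It was above the floor in all 10 libraries, with at least 578 reads behind each value. Rtp4, a chaperone of receptor transport that interferon induces, was 4.32, 5.51 and 6.69 in WT IQ3pos and 3.50, 5.37 and 6.47 in WT IQ3neg, and 4.20 and 6.17 in R122C IQ3pos against 4.01 and 4.40 in R122C IQ3neg. For both genes the replicate 3 libraries were the highest of WT and the replicate 1 libraries the lowest, in either fraction.

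**Figure D2:**
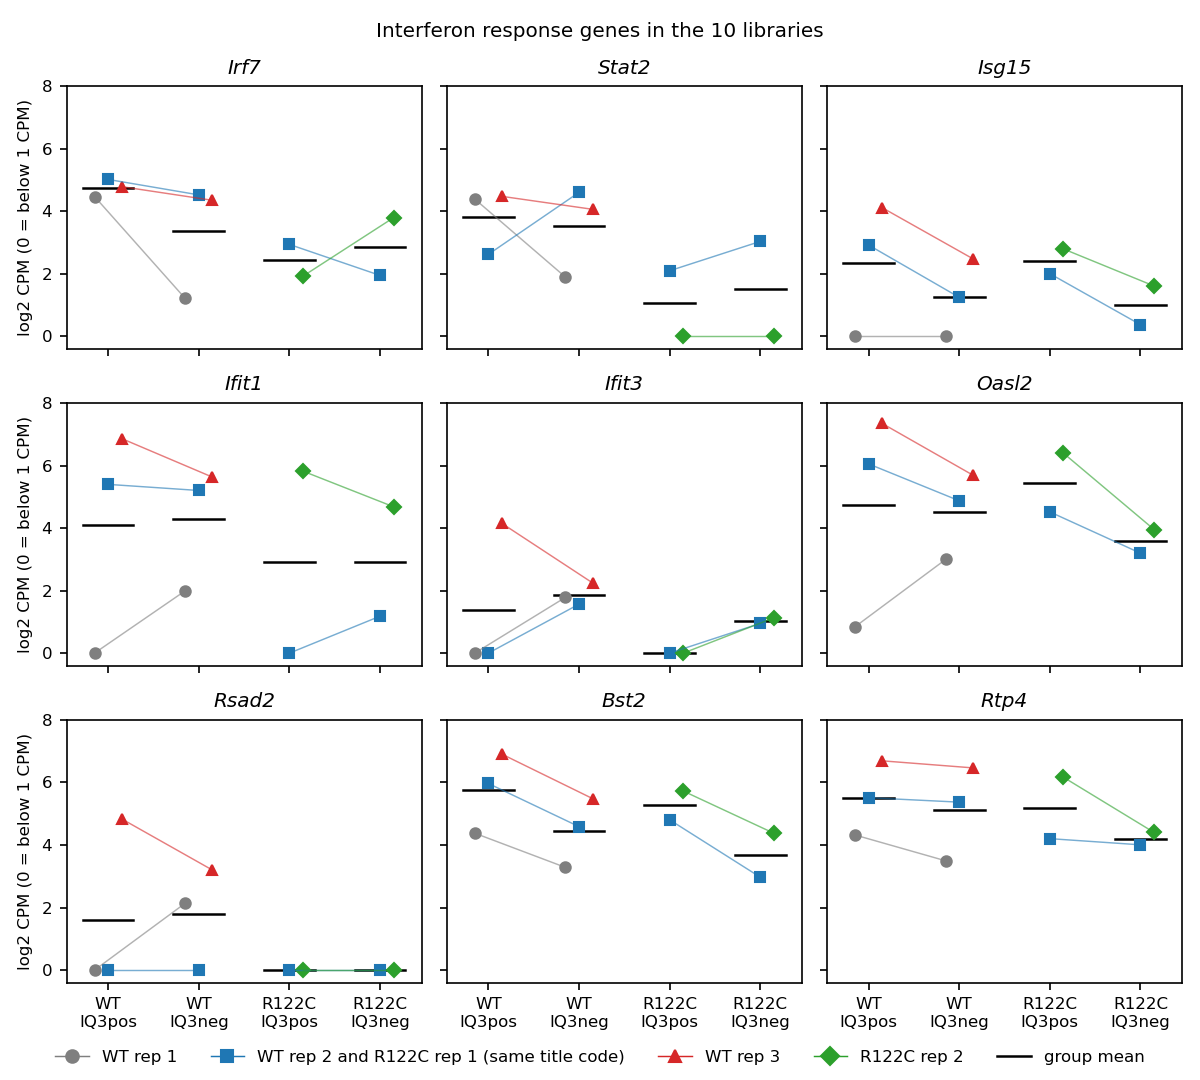
Log2 CPM of the 9 interferon response genes in each library, 1 panel per gene, with the 4 groups on the x axis. Points are libraries coloured by replicate (WT replicate 2 and R122C replicate 1 share a title code and a colour), thin lines join the IQ3pos and IQ3neg libraries of 1 genotype and replicate number, black bars are group means, and a value of 0 is below 1 CPM. In 7 of the 9 panels the red triangles of WT replicate 3 are the highest of their fraction on both sides.

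The highest values of most members lay in 1 pair of libraries, WT replicate 3. WT replicate 3 was the highest of the 5 IQ3pos libraries for 8 of the 9 genes, against 21.7% of the 17155 genes tested, the exception being Irf7. It was the highest of the 5 IQ3neg libraries for 7 of 9, against 18.7% of all genes, the exceptions being Irf7 and Stat2. Those 7, Isg15, Ifit1, Ifit3, Oasl2, Rsad2, Bst2 and Rtp4, were highest there in both fractions, as were 5.58% of all genes. Rsad2 passed the filter of at least 2 libraries above 0 only through the WT replicate 3 libraries, so its place in these counts depends on that filter.

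The summed CPM of the 9 genes was 85.55, 262.65 and 615.26 in WT IQ3pos and 46.84, 184.01 and 291.02 in WT IQ3neg, replicates 1 to 3. In R122C it was 85.2 and 276.11 in IQ3pos and 50.58 and 102.09 in IQ3neg. In each of the 4 groups the library with the larger total of reads had the larger sum, and 5 of the 9 genes, Isg15, Ifit1, Oasl2, Bst2 and Rtp4, followed the library total in all 4 groups, against 2.45% of all genes. Under the title code they share, R122C replicate 1 had totals of 176450820 and 172885551 reads and sums of 85.2 and 50.58, while WT replicate 2 had totals of 145553096 and 131045009 reads and sums of 262.65 and 184.01. Across the WT replicates the summed CPM of the immune markers ran the other way, with 379.81, 75.5 and 52.67 in IQ3pos and 1161.08, 523.87 and 314.96 in IQ3neg. In R122C the immune sum also ran the other way in IQ3pos, with 21.78 and 0. It ran the same way as the members' sum in R122C IQ3neg, with 973.04 and 1309.4. There Igkc (9.24 and 9.87 log2 CPM) and Jchain (8.14 and 8.27) were the highest immune markers. Others of the list went both ways, with Lyz2 at 4.50 and 1.85, Fcer1g at 2.97 and 1.45 and Cd68 at 1.62 and 2.53. The summed CPM of the epithelial markers ran in the same order as the members' sum in all 4 groups, with 9271.88, 10216.21 and 11057.58 in WT IQ3pos, 3098.91, 8298.96 and 10172.37 in WT IQ3neg, 12656.46 and 13180.65 in R122C IQ3pos and 8232.02 and 10997.3 in R122C IQ3neg. The part of library total, of epithelial content and of immune cells in these levels was not tested.

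**Figure D3:**
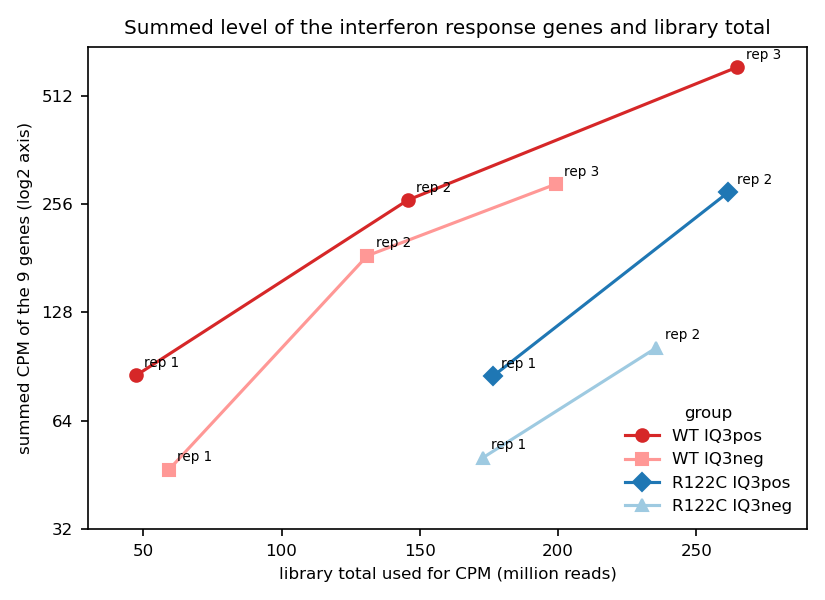
Summed CPM of the 9 interferon response genes (y axis, log2 scale) against the library total used for CPM in units of 1000000 reads (x axis). Each point is a library labelled with its replicate number, and lines join the libraries of a group. Each of the 4 lines rises to the right, and R122C replicate 1 lies below WT replicate 2 in both fractions at a larger total.

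A limma F test of the difference between pools within a genotype, chosen after seeing the data, passed the Benjamini-Hochberg adjusted threshold of 0.05 for 0 of the 9 members and for 0% of the 17155 genes. Without adjustment, 6 of the 9 members had a p under 0.05, against 9.47% of all genes. The lowest was that of Ifit1 (limma adjusted p = 0.382). Oasl2, Rtp4, Bst2 and Rsad2 had an adjusted p of 0.463 and Isg15 of 0.517 in the same limma test, while Irf7, Stat2 and Ifit3 stayed above 0.05 before adjustment. This test takes the IQ3pos and IQ3neg libraries of 1 genotype and replicate number as 1 pool, which the labels do not state. Its p-values set the differences between pools against the spread left within pools. Rsad2 entered this test only because it was above the floor in the WT replicate 3 libraries.

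Between the fractions of WT, 0 of the 9 members passed the limma test, in which 2.03% of all genes did, and 0 had an unadjusted p under 0.05, against 18.6% of all genes. Bst2 was 1.30 ± 0.756 log2 units (SE) higher in IQ3pos, a 2.46-fold difference of the mean levels, with a 95% interval of -0.35 to 2.94 and an adjusted p of 0.384. Irf7 was 1.40 ± 0.946 higher (interval -0.67 to 3.46, adjusted p = 0.459) and Isg15 1.10 ± 1.12 higher (interval -1.34 to 3.54, adjusted p = 0.624). The differences of the other 6 lay between -0.48 for Ifit3 and 0.40 for Rtp4. The median over the 9 members was 0.31, beside 0.16 over all genes tested. In 0 of the 9 did the IQ3pos and IQ3neg libraries of WT stand apart without overlap, against 21.3% of all genes. The sign of the median depended on single libraries: it was 1.54, with all 9 higher in IQ3pos, without WT IQ3pos replicate 1, and -0.19, with 3 of 9 higher, without WT IQ3pos replicate 3. With each library centred on its median, 3 of 9 were higher in IQ3pos, with Stat2, Oasl2 and Rtp4 turning negative, and the median was -0.20, beside -0.35 for all genes.

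Between the fractions of R122C, 0 of the 9 members passed the limma test, against 0.321% of all genes, and 0 had an unadjusted p under 0.05, against 8.1%. Oasl2 was 1.88 ± 1.66 log2 units higher in IQ3pos (interval -1.74 to 5.5, adjusted p = 0.829), Bst2 1.59 ± 0.926 higher (interval -0.42 to 3.61, adjusted p = 0.724) and Isg15 1.41 ± 1.37 higher (interval -1.58 to 4.4, adjusted p = 0.847). The libraries did not overlap for 4 of the 9, with Isg15, Oasl2 and Bst2 higher and Ifit3 lower in IQ3pos, against 36.3% of all genes with 2 libraries a group. Irf7 was -0.44 (interval -2.97 to 2.08), and Rsad2 was listed at 0 throughout. The median was 0, beside 0.02 over all genes. Without R122C IQ3pos replicate 1 the median was 1.80.

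Taken within a genotype and replicate number, Bst2 was higher in IQ3pos in each of the 5 pairs, by 1.09, 1.38 and 1.42 log2 units in WT replicates 1, 2 and 3 and by 1.84 and 1.35 in R122C replicates 1 and 2. Rtp4 was higher in all 5 as well, by 0.83, 0.14 and 0.23 in WT and by 0.20 and 1.77 in R122C. These were 2 of the 9 members, against 15.8% of all genes. The differences of Bst2 within pairs were closer together than its levels, which spanned 4.38 to 6.91 in WT IQ3pos alone. Isg15 was higher in IQ3pos in the 4 pairs in which it was above the floor, by 1.67 and 1.63 in WT and 1.63 and 1.19 in R122C. Irf7 and Oasl2 were each higher in 4 pairs and lower in 1, with Irf7 at -1.87 in R122C replicate 2 and Oasl2 at -2.15 in WT replicate 1. Stat2 was higher in 2 pairs and lower in 2. Ifit3 went mostly the other way, higher in IQ3pos in 1 pair and lower in 4, and Ifit1 was higher in 3 and lower in 2. Rsad2 was higher in 1 pair, lower in 1 and listed at 0 in the other 3. The summed CPM of the immune markers was lower in IQ3pos than in IQ3neg in each pair, but single markers went both ways. Igkc was 5.29, 0 and 0 log2 CPM in WT IQ3pos and 8.89, 8.24 and 7.53 in WT IQ3neg. Csf1r was 4.63, 4.01 and 2.38 in WT IQ3pos and 2.07, 2.65 and 2.22 in WT IQ3neg. In R122C, Igkc was 1.68 and 0 against 9.24 and 9.87, and Csf1r was 1.82 and 0 against 0.95 and 0.83. The part of immune cells in the differences of the members was not tested.

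**Figure D4:**
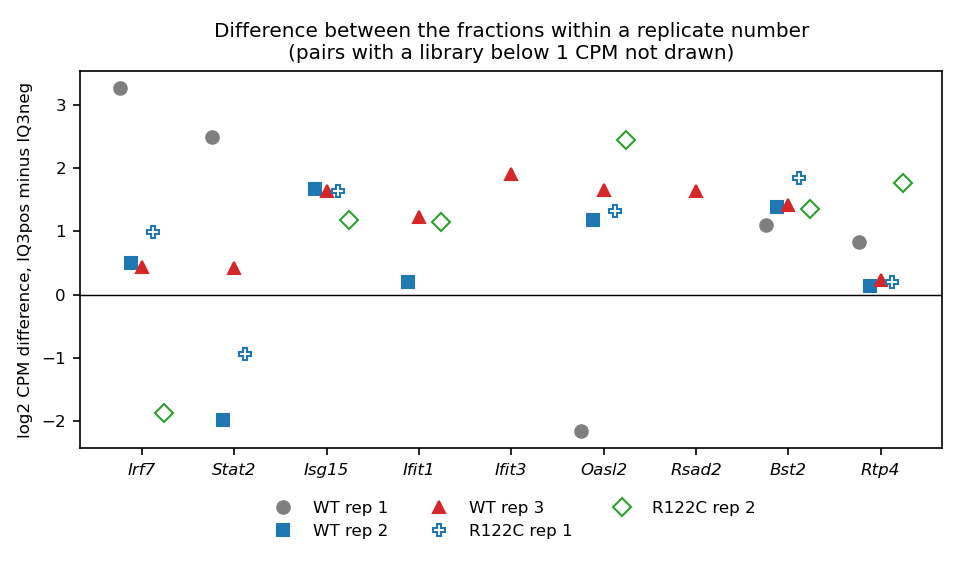
Difference in log2 CPM between the IQ3pos and IQ3neg library of the same genotype and replicate number (y axis) for the 9 genes (x axis). Filled symbols are WT pairs and open symbols are R122C pairs, and pairs in which a library was below 1 CPM are not drawn, which removes the pairs of Ifit1 (2), Ifit3 (4) and Rsad2 (1) in which IQ3pos was listed at 0 and IQ3neg was not. The 5 Bst2 points lie between 1.09 and 1.84.

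Between the genotypes in IQ3pos, 0 of the 9 members passed the limma test and 0% of all genes did, with 930 genes (5.42%) at an unadjusted p under 0.05. Irf7 and Stat2 were 2 of those 930. Irf7 was -2.33 ± 1.06 log2 units in R122C against WT, a 5.02-fold lower mean level (interval -4.63 to -0.02, limma adjusted p = 0.911). Stat2 was -2.78 ± 1.26 (interval -5.53 to -0.03, limma adjusted p = 0.911), and its size depends on the floor, since 1 R122C library was listed at 0. They were also the 2 of 9 members whose libraries did not overlap, against 15.5% of all genes. The remaining differences ran from -1.61 for Rsad2 to 0.71 for Oasl2, with a median over the 9 of -1.18, beside 0 over all genes. Without WT IQ3pos replicate 3 the median was 0.09, while Irf7 kept a negative difference (-2.83 to -1.82) and Stat2 also (-3.82 to -1.73) whichever single library was left out. The count of members at an unadjusted p under 0.05 fell from 2 to 0 without R122C IQ3pos replicate 2, without WT IQ3pos replicate 1 or 3, without WT IQ3neg replicate 2 or 3, without both WT replicate 3 libraries and with no filter on low values. It fell to 1 without R122C IQ3neg replicate 2, R122C IQ3pos replicate 1, WT IQ3pos replicate 2 or both WT replicate 1 libraries. The summed CPM of the immune markers was 0 to 21.78 in R122C IQ3pos and 52.67 to 379.81 in WT IQ3pos, and its part in the Irf7 and Stat2 values was not tested.

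Between the genotypes in IQ3neg, all 9 members had a negative difference, R122C minus WT, and 0 passed the limma test, as did 0% of all genes, with 629 of these (3.67%) and 0 members under an unadjusted p of 0.05. Stat2 was -2.0 ± 1.26 (interval -4.75 to 0.75) and Rsad2 -1.78 ± 1.34 (interval -4.69 to 1.13), both with a limma adjusted p of 1. The median was -0.91, beside 0.07 over all genes. The libraries of 1 of the 9, Ifit3, did not overlap, against 13.6% of all genes. Without WT IQ3neg replicate 3 the median was -0.36 and 2 of the 9 were positive.

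**Figure D5:**
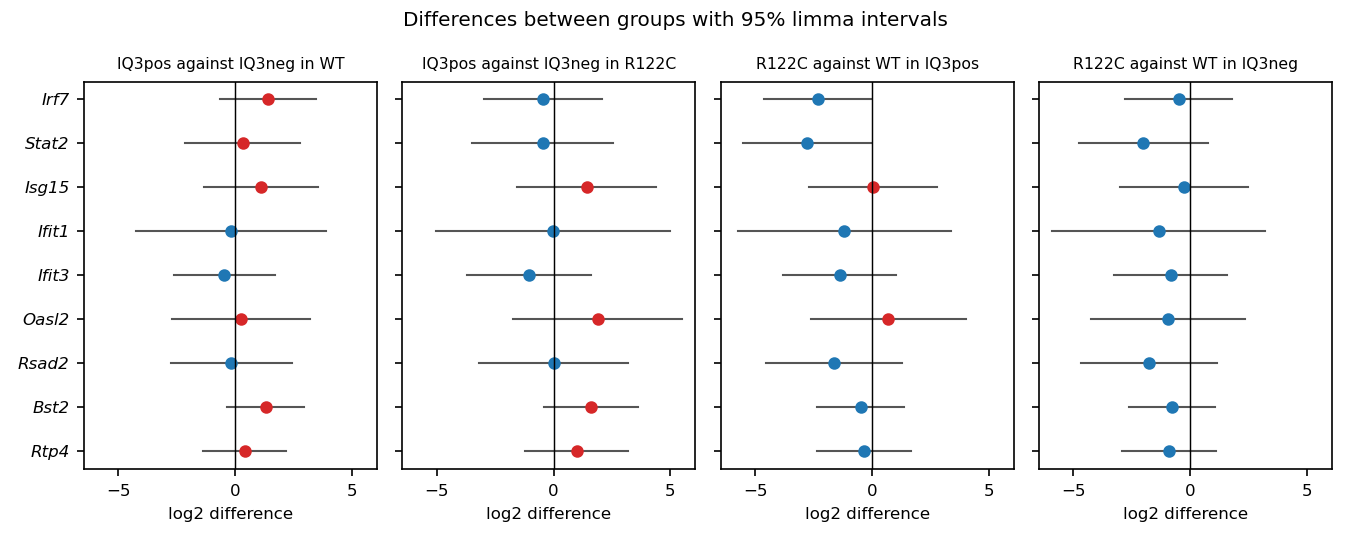
Log2 difference of the 9 genes in 4 comparisons (x axis), with points for the estimate, red above 0 and blue at or below it, and lines for the 95% interval from limma. The intervals of Irf7 and Stat2 for R122C against WT in IQ3pos end at -0.02 and -0.03, and the intervals of the other genes and comparisons include 0.

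WT replicate 2 and R122C replicate 1 were the only replicates of different genotype with a title code in common, with 1 library per genotype and fraction, so their values have no replicate check. Between them, 7 of the 9 members were lower in R122C than in WT in both fractions, against 24% of all genes. In IQ3pos the differences were -2.08 for Irf7, -0.52 for Stat2, -0.92 for Isg15, -1.54 for Oasl2, -1.16 for Bst2 and -1.31 for Rtp4. Ifit1 was 5.40 in WT and 0 in R122C. In IQ3neg they were -2.58 for Irf7, -1.57 for Stat2, -0.88 for Isg15, -4.02 for Ifit1, -1.68 for Oasl2, -1.62 for Bst2 and -1.37 for Rtp4. Of the other 2, Ifit3 was 0 in both IQ3pos libraries and differed by -0.62 in IQ3neg, and Rsad2 was 0 in all 4. R122C replicate 2 has no WT library of its code, so there genotype and code cannot be told apart.

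The interaction of fraction and genotype, the test of whether the fractions differed by another amount in R122C than in WT, passed for 0 of the 9 members and for 0% of all genes, with 444 genes (2.59%) and 0 members under an unadjusted p of 0.05. The estimate for Irf7 was -1.84 ± 1.5 (interval -5.1 to 1.42), for Oasl2 1.66 ± 2.15 (interval -3.02 to 6.33) and for Bst2 0.30 ± 1.2 (interval -2.31 to 2.9), each with a limma adjusted p of 1. The median was 0.17, beside -0.13 over all genes.

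The genes that pass the signal to the members were measured by the same fit. The 10 interferon genes listed as ligands, among them Ifnb1, Ifng and Ifnl2, were at 0 in all 10 libraries, so that none could be tested. Ifnar1, a chain of the type I receptor, averaged 3.57 log2 CPM over the 10 libraries (0 to 5.2) and Ifnar2, the other chain, 1.75 (0 to 3.36). The kinases were at 6.10 for Jak1 (4.74 to 6.89) and 1.69 for Tyk2 (0 to 3.04). Irf9, the DNA-binding part of ISGF3, was at 4.73 (0.16 to 6.09). None of these 5 passed the limma test in any of the 5 comparisons. The largest difference was that of Ifnar2 between the fractions of R122C, at -2.61 ± 1.13 (limma adjusted p = 0.573).

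The wider pathway lists held no gene past the limma threshold in any of the 5 comparisons. The lists had 38 tested interferon-stimulated effectors of 40, 17 receptor and signalling genes of 18, 11 sensors and adaptors of 14, and 19 interferon-gamma targets of 23, and the lowest adjusted p among them was 0.164. The effectors had a median difference of 0.15 between the fractions of WT and -0.03 between those of R122C. Their median of R122C against WT was -0.56 in IQ3pos, beside 0 for all genes, and -0.28 in IQ3neg, beside 0.07. Of the 38 effectors, 13 were highest in WT replicate 3 in both fractions, among them Ifi44, Oas1a, Mx1, Usp18 and Ifitm3, against the 5.58% of all genes given above. The same held for 2 of the 17 receptor and signalling genes, 2 of the 11 sensors, Ifih1 and Dhx58, and 3 of the 19 interferon-gamma targets, Irgm1, Tap1 and Psmb9, all named here after their values were seen. Of the effectors, 3 followed the library total in all 4 groups (Oas1a, Ifitm3 and Ube2l6), as did 2 of the 19 interferon-gamma targets (Irgm1 and Psmb9) and 0 of the 17 receptor and signalling genes and of the 11 sensors, against 2.45% of all genes.

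The genes whose level ran most like that of the members were found with the mean standardised log2 CPM of Irf7, Oasl2, Bst2 and Rtp4, the 4 members above the floor in all 10 libraries. Over 10 libraries and 7404 genes above the floor throughout, B2m, the light chain of MHC class I, had the highest Pearson r (0.956), followed by Gm20498 (0.953), Ifi27l2b (0.947), Ube2b (0.944) and Mgst2 (0.916). The libraries share their totals and their pools of mice, and r is given as a description. B2m was at 8.70, 9.79 and 10.36 log2 CPM in WT IQ3pos and 8.30, 9.52 and 9.72 in WT IQ3neg, and at 9.02 and 9.20 in R122C IQ3pos and 8.72 and 9.35 in R122C IQ3neg. Ifi27l2b, of a family of interferon-inducible proteins, was at 7.09, 8.02 and 8.71 in WT IQ3pos and 5.43, 7.02 and 7.98 in WT IQ3neg, and at 6.83 and 7.30 in R122C IQ3pos and 5.04 and 6.48 in R122C IQ3neg. B2m, Ifi27l2b and Mgst2 were highest in WT replicate 3 and lowest in replicate 1 within each WT fraction. In WT IQ3neg, Gm20498 and Ube2b were instead higher in replicate 2 (6.06 and 7.83) than in replicate 3 (6.03 and 7.74). The mean used to pick these genes was itself highest in WT replicate 3 in each fraction (1.379 and 0.741), so a shared order is no separate evidence. Of the effector list, Ube2l6, the conjugating enzyme for ISG15, came nearest, at rank 161 of the 7404 genes less the 4 members (r = 0.792). Ifi35 (rank 193, r = 0.783), Samd9l (rank 291, r = 0.759), Usp18 (rank 303, r = 0.756) and Ifitm3 (rank 312, r = 0.754) followed. The next effector, Dtx3l, was at rank 1927 (r = 0.576), and the rest ran down to Adar at rank 6609 (r = -0.115).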

How the data were processed

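RNA from 10 pooled libraries of sorted cells was measured by sequencing. The values are the authors' deposited log2 CPM of 55276 genes, in which a gene below 1 CPM is listed at 0. Tools named in the submitters' processing notes are edgeR, featureCounts, STAR 2.7.1a and Subread 2.0.0, with the build GRCm38. Neither strandedness nor library scaling is given in the sources used here. Per the labels' protocols, RNA was amplified by PCR before library preparation, so reads are not independent molecules. The CPM listed for each library added up to between 1036666 and 1053761, more than 1000000, for a reason the sources used here do not give. In each library 100% of listed values were whole reads within 0.05 read, which gave the totals. No count test was run, since genes below 1 CPM carry no read number.

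The deposited log2 values were fitted for all 10 libraries at once with limma 3.58.1 (R 4.3.3), with 4 group means, an intensity trend and no covariate. Genes above 0 in at least 2 libraries were kept (17155). The two-sided p-values were adjusted by Benjamini-Hochberg over these genes in each comparison, with a threshold of 0.05. The method was tested on simulated data, with 200 genes well above the floor changed by 3 log2 units between the fractions of WT. Of these, 72% were recovered, with 11 false calls. The other comparisons were not checked in this way. The simulated libraries shared no shift between the fractions of a pool, and every difference of a member in the reported fit was smaller than 3 log2 units. The 72% therefore does not tell how often differences of the members' size and level would be found. Differences on the log2 scale against a library listed at 0 depend on the floor, and no fold is given for them. The members, gene lists and tests were chosen with earlier results of these data known. Named genes were all 9 members, 5 genes of the receptor and signalling chain (items withheld from the text are not reported here), list genes past the threshold (there were none) and the 5 genes most like the members. Other genes, such as Ifit3b and the list genes named in counts of libraries, were named after their values were seen. Counts of libraries in order, of groups without overlap and within replicate numbers or title codes were chosen after seeing the data. Promoters and coordinates came from RefSeq (GRCm38.p6) and GENCODE M21 (GRCm38). A planned comparison of proteins was not made, and shared 50-base stretches of transcripts were counted in its place. The sensor Mb21d1 was not analysed here under that symbol.

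Alternatives were log2(CPM + 1), no filter, median centring, no trend, leaving out libraries, a replicate block and the title code as a term.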

Additional observations from a re-analysis of the deposited data

How the results depend on the processing

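In the 778 fits of a member that were run over the 5 comparisons and 19 alternative settings, 0 passed the limma threshold (lowest adjusted p 0.139). The title code and a random block were run for the genotype comparisons, a fixed block for the other 3, and Rsad2 was not tested without both WT replicate 3 libraries. Of these fits, 91 had another sign than in the reported fit. Members with an unadjusted limma p under 0.05 rose from 0 in some fits with at least 2 libraries a group. Between the fractions of WT there were 3 without WT IQ3pos replicate 1 and 2 without replicate 3. The fixed block gave 1, as did leaving out both WT replicate 3 libraries. Between the R122C fractions there were 2 without both WT replicate 1 libraries and 1 with the block. Between genotypes in IQ3neg there were 2 without both WT replicate 1 libraries and 1 without WT IQ3pos replicate 3. There were 3 with the title code as a term, a fit whose limit is given below. The counts of all genes called moved more. Between the fractions of WT, 348 became 938 with libraries centred on their median, 191 with no filter, 25 without both WT replicate 3 libraries (chosen after seeing the data) and 79 to 455 when 1 library was left out. Between the fractions of R122C, 55 became 119 with centring, 146 with no intensity trend, 105 without both WT replicate 1 libraries, 20 without both WT replicate 3 libraries and 2 to 73 when 1 library was left out. For R122C against WT in IQ3pos, 0 became 5 with centring, 7 with no trend, 2 without both WT replicate 1 libraries and 0 to 2 when 1 library was left out, and in IQ3neg 0 became 4 with no filter. The interaction went from 0 to 2 without both WT replicate 1 libraries. The cause was not tested. Centring also moved the median difference of all genes from 0.16 to -0.35 between the fractions of WT, from 0.02 to -0.28 between those of R122C and from 0.07 to -0.14 between the genotypes in IQ3neg. With 1 library left out, the members' median ran from -0.41 to 1.54 (fractions of WT), 0 to 1.80 (fractions of R122C), -2.07 to 0.09 (genotypes in IQ3pos), -1.60 to -0.36 (genotypes in IQ3neg) and -0.64 to 1.18 (interaction).

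Same-numbered libraries deviated together with r = 0.162, 0.115 and 0.081 in WT and 0.105 in both R122C pairs. With 2 libraries a group, the 2 R122C values are equal by construction and count as 1 check. The block was kept out of the reported tests because the labels do not say that same-numbered libraries come from the same mice. The test between pools and the differences within a replicate number assume a shared pool, which the labels do not state. With the fixed replicate block, 364 genes were called between the fractions of WT and 31 between those of R122C. Bst2 then had a limma adjusted p of 0.139 in WT and 0.350 in R122C. This block takes the differences between pools out of the spread that the p-values rest on. With the title code as a term, Irf7 in IQ3pos was -3.24 for R122C against WT and Stat2 -1.43. In IQ3neg the members' median in that fit was -1.41, with Ifit1 at -4.79, Oasl2 at -2.43 and Rtp4 at -1.63, and 0 members were positive. Only WT replicate 2 and R122C replicate 1 share a code. The genotype difference averaged over the fractions therefore rests on these alone in that fit, without a replicate check. Groups of 2 or 3 libraries and the floor of 1 CPM limit what can be seen.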
